A study of Mus musculus with 4 samples.

Results

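The striated muscle myosin heavy chains are the motor subunits of the thick filament, and 9 of their genes were followed here: Myh1, Myh2, Myh3, Myh4, Myh6, Myh7, Myh7b, Myh8 and Myh13. They were taken by gene name, but the family was chosen with earlier results of these data known. All 20 array probes carrying 1 of these names were read, among 56601 probes and 27194 named genes in all. The tissues were pools from ICR mouse embryos, an outbred stock, with no mutation or treatment given: the medial mandibular arch of 12 embryos at E9.5 (MMA), both the lateral lingual swellings (LLS) and the lateral mandibular arch (LMA) of 4 embryos each at E11.5, and the tongue of 4 embryos at E14.5 (T). Each pool was hybridised to 1 single-colour Agilent array, so there is no replicate, no difference between tissues was tested, and the number of arrays limits the precision.

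Skeletal myofibres change their heavy chain during development. Myh3, the embryonic isoform, and Myh8, the perinatal isoform, are made first in the fetus, and the adult fast isoforms Myh2 (IIa), Myh1 (IIx) and Myh4 (IIb) largely take over after birth, while Myh7 encodes the slow isoform of skeletal muscle, also known as the beta chain of the heart. Myh6 encodes the cardiac alpha chain, Myh13 the isoform known from extraocular muscle, and Myh7b an ancient slow-type chain. The body of the tongue is largely skeletal muscle, whose precursors migrate in from occipital somites, whereas the jaw muscles of the mandibular arch arise from cranial mesoderm.

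In the RefSeq annotation (build GRCm38.p6), Myh3, Myh2, Myh1, Myh4, Myh8 and Myh13 lie within 293.3 kb of chromosome 11, Myh6 and Myh7 are neighbours on chromosome 14, and Myh7b is on chromosome 2. Because these genes are close copies of each other, the letters of their 60-base probes decide what each signal can report. The sets shown are the 3′ probes of Myh3 and Myh8, on which the largest differences rest, with that of Myh1, which shares the longest run with Myh8, and the 5′ probes of Myh8, Myh2 and Myh3, which come from matching places of their transcripts. For the 3′ probes of Myh8 and Myh1, capitals mark the longest run that both share, and for Myh3 they mark the polyadenylation signal AATAAA, with 30 bases shown for Myh1 (its first) and for Myh3 (its last).
Myh8, 3′ probe: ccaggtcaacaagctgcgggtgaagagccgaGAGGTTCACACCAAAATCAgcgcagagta
Myh1, 3′ probe: gGAGGTTCACACCAAAATCAtaagcgaaga
Myh3, 3′ probe: cttttccacatgcAATAAAgtttgccttgt
The 5′ probes of Myh8 and Myh2 have their longest shared run in capitals, and that of Myh3 has the run it shares with Myh8.
Myh8, 5′ probe: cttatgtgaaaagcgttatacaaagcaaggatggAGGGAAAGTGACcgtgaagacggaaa
Myh2, 5′ probe: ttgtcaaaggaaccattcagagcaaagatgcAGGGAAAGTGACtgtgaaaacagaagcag
Myh3, 5′ probe: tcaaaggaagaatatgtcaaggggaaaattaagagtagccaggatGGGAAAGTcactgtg

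The run shared by the 3′ probes of Myh8 and Myh1 was 19 bases, the longest among 174 pairs of probes of different members, and 3 pairs shared a run of 12 bases or more. The 5′ probes of Myh2 and Myh8 were 73.7% identical over 57 aligned bases, the highest identity of any pair. Whether a transcript of 1 member also binds the probe of another was not tested, and other transcripts of the mouse were not compared with the probes here. In the file headers (build mm9) the 3′ probe of Myh3 lies at chr11:66915724-66915783, that of Myh8 at chr11:67121925-67121984 and that of Myh1 at chr11:67037938-67037997, all on the plus strand. These 3 probes start at base 5922, 5937 and 5879 of their transcripts, in that order of genes.

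The values below are processed signals, the background-subtracted brightness of a spot, each with the error that the scanner software assigned to it. A signal was called well above background by the same software, and the lowest signal so called was 22.2 in MMA, 21.3 in LLS and 20.1 in LMA, with 26.7 in T. For differences, log2 signals were scaled to the 75th percentile of their array, and a dim signal was raised to that lowest value, which turns the difference into a bound. In a mean over all probes of a gene, dim probes entered with such raised signals. This draws the mean toward the difference between the floors of the arrays. A difference of 1 on the log2 scale is 2-fold and was the threshold for counting. Between 57.0% and 62.9% of the spots on the 4 arrays were well above background and 0 were saturated. Probes printed 10 times gave differences between 2 arrays with an SD over spots of 0.0509 to 0.0686 (log2), which covers spot error and not differences between pools. All probes of the 9 genes are single spots.

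The labelled tissues were checked with 10 skeletal muscle identity genes. Well above background were 3 of them in MMA, 6 in LLS and 8 in LMA, with all 10 in T. The myogenic regulator genes Myod1 and Myog had signals of 432 and 1357 in LLS and 913 and 4235 in LMA, while in MMA (4.6 and 4.7) they were not well above background. The regulator gene Myf5 was well above background in T only (181.5), and Myf6 in LMA (29.7) and T (999.6) only.

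The embryonic and perinatal isoforms had the largest differences between tissues in the family. By its 3′ probe, Myh3 had a signal of 5.3 ± 5.3 in MMA, 596.2 ± 59.8 in LLS and 4065.8 ± 406.6 in LMA, with 78022.8 ± 7802.3 in T. The gene was thus not well above background in the E9.5 arch, well above it in both E11.5 tissues, and highest in the E14.5 tongue. Its difference was 6.93 ± 0.20 in T minus LLS (121.6-fold) and 4.31 ± 0.20 in T minus LMA (19.8-fold), on the log2 scale with the error of the scanner software. Against MMA the signal in T was at least 3024-fold higher. With the mean of both Myh3 probes these log2 differences were at least 5.54 in T minus LLS, 3.79 in T minus LMA and at least 7.80 in T minus MMA. In bulk tissue, fewer muscle cells and less myosin RNA per muscle cell cannot be told apart.

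Myh8, by its 3′ probe, had a signal of 39.5 ± 6.4 in MMA, 291.5 ± 29.5 in LLS and 1021.6 ± 102.3 in LMA, with 30037.7 ± 3003.8 in T. The order of the tissues was that of Myh3, except that the MMA signal was also called well above background. The log2 difference was 6.58 ± 0.21 in T minus LLS (95.7-fold), 4.92 ± 0.20 in T minus LMA (30.4-fold) and 9.35 ± 0.28 in T minus MMA (653.2-fold). With the mean of all its probes they were at least 4.13, at least 3.89 and at least 4.69, and with normexp background correction T minus MMA was 7.91.

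Other probes of both genes gave the same highest tissue but fewer detected ones. The 5′ probe of Myh3, from base 170, had signals of 19.7 in MMA and 22.0 in LLS, both not well above background, then 45.4 in LMA and 421.6 in T, which makes T minus LLS at least 17.8-fold. The remaining probes of Myh8, from bases 326, 2202 and 2970 of their transcripts, were well above background in T and in no other tissue, at signals of 365.7, 336.1 and 95.2. Their T minus LLS bounds were at least 15.9-fold, 14.6-fold and 4.15-fold. Signal of Myh8 above background at E9.5 and E11.5 therefore came from its 3′ probe alone. With the mean of all its probes LMA minus MMA was 0.80, LLS minus MMA 0.57 and LLS minus LMA -0.24, all under 2-fold. The other probes entered these means at the floor, so the means cannot show whether the differences of the 3′ probe hold.

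**Figure D1:**
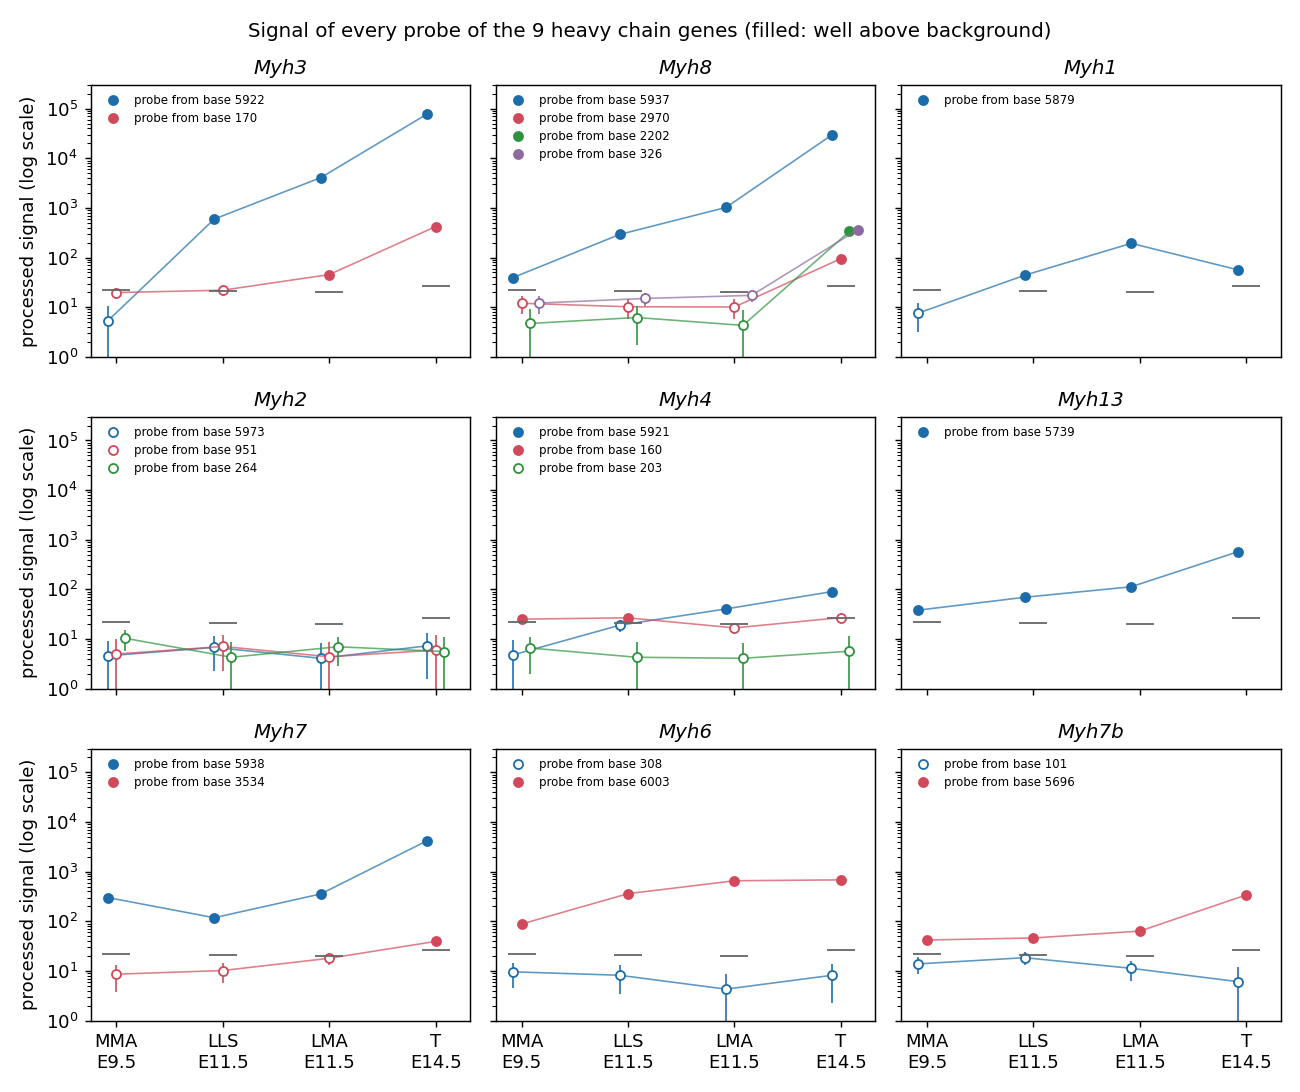
Processed signal (log axis) of every probe of the 9 genes in MMA, LLS, LMA and T, 1 array per tissue, each probe named by its first base in its transcript. Filled circles are well above background, open circles are not, vertical bars are the error of the scanner software, and grey dashes mark the lowest signal called well above background on that array; the 3′ probes of Myh3 and Myh8 reach 78022.8 and 30037.7 in T, while all 3 probes of Myh2 are open circles in every tissue.

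Among the adult fast isoforms, Myh1 had a pattern of its own. Its probe gave 7.6 ± 4.5 in MMA, 44.1 ± 6.1 in LLS and 193.3 ± 19.7 in LMA, with 56.7 ± 7.8 in T. The highest signal was in the lateral arch and not in the tongue, and MMA was not well above background. T minus LMA was -1.72 ± 0.25 (3.30-fold lower in T) and LLS minus LMA was -1.98 ± 0.25 (3.94-fold lower in LLS), while T minus LLS, at 0.25 ± 0.28, was smaller than its error. With normexp, T minus LMA was -1.05 and LLS minus LMA -1.12.

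Myh4 had 3 probes. The one from base 5921 gave 4.8 ± 4.9 in MMA and 19.0 ± 5.0 in LLS, both not well above background, then 40.5 ± 6.1 in LMA and 90.7 ± 10.8 in T. T minus LMA was 1.21 ± 0.28 (2.31-fold), and T minus LLS at least 3.95-fold. The probe from base 160 stayed between 16.8 and 27.1 in all tissues, near the detection limit. It was called well above background in MMA (25.2) and LLS (26.8) and not in LMA (16.8) or T (27.1). The probe from base 203 stayed between 4.1 and 6.6 and was not well above background in any tissue. Thus 1 of the 3 probes carries the difference, and T minus LMA was under 2-fold with normexp background correction (0.61) and with the mean of all probes (0.71), as was T minus LLS (0.76 and 0.70).

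For Myh2, none of the 3 probes was well above background in any tissue, with signals between 4.1 and 10.4, so no difference is given. Myh13, the extraocular isoform, had 38.3 ± 6.3 in MMA, 69.5 ± 8.4 in LLS and 113.2 ± 12.2 in LMA, with 572.0 ± 57.5 in T by its single probe. All 4 signals were well above background and T was the highest. T minus LLS was 2.93 ± 0.23 (7.65-fold), T minus LMA 2.38 ± 0.21 (5.22-fold) and T minus MMA 3.68 ± 0.28 (12.9-fold), and with normexp they were 2.12, 1.85 and 2.36. The Myh13 probe shares a run of 11 bases with the 3′ probe of Myh8 and is 67.4% identical to it over 43 aligned bases. How far Myh8 RNA contributes to the Myh13 signal was not tested.

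The slow isoform gene Myh7 was already well above background at E9.5. Its 3′ probe (chr14:55589581-55589640, minus strand, mm9) gave 301.1 ± 30.6 in MMA, 118.1 ± 12.9 in LLS and 355.8 ± 35.9 in LMA, with 4210.1 ± 421.1 in T. LLS was the lowest tissue, MMA and LMA were alike in signal, and T was the highest. T minus LLS was 5.05 ± 0.21 (33.1-fold) and T minus LMA 3.61 ± 0.21 (12.2-fold). LLS minus MMA was -1.46 ± 0.22 (2.76-fold lower in LLS), and LMA minus MMA, at -0.02 ± 0.21, was smaller than its error. With the mean of both probes T minus LLS was at least 2.91 and T minus LMA at least 2.31, while LLS minus MMA was -0.82 and LLS minus LMA -0.60, under 2-fold. The second probe of Myh7, from base 3534, was well above background in T only, at 39.4 ± 6.9, and entered these means at the floor elsewhere.

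Myh6, the cardiac alpha chain gene, did not share the large difference of T from the E11.5 tissues. By the probe from base 6003 it had 88.2 ± 9.9 in MMA, 360.8 ± 36.3 in LLS and 655.7 ± 65.7 in LMA, with 684.1 ± 68.6 in T. T minus LMA was 0.11 ± 0.20, within its error, and T minus LLS 0.82 ± 0.21, under 2-fold. MMA stood below the rest: T minus MMA was 2.74 ± 0.22 (6.67-fold), LMA minus MMA 2.63 ± 0.22 (6.19-fold) and LLS minus MMA 1.92 ± 0.22 (3.79-fold). Averaged over both probes these were 1.39, 1.11 and 0.88. The other Myh6 probe, from base 308, was not well above background in any tissue and entered these averages at the floor.

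Myh7b, by the probe from base 5696, had 42.0 ± 6.7 in MMA, 46.2 ± 6.8 in LLS and 63.5 ± 8.0 in LMA, with 339.4 ± 34.5 in T. The 3 earlier signals lay close together and T was above them all. T minus LLS was 2.77 ± 0.26 (6.82-fold), or 1.66 with normexp and 1.49 with the mean of both probes, whereas LLS minus MMA, at 0.03 ± 0.31, was smaller than its error. Its other probe, from base 101, was not well above background anywhere.

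Since Myh6 and Myh7 are also heart genes, 12 cardiac markers, and the thick filament gene Mybpc3, were read beside them. The number well above background was 6 in MMA, 6 in LLS and 5 in LMA, with 8 in T. Gata4, a cardiac transcription factor gene, was not well above background in any tissue, and the natriuretic peptide genes Nppa and Nppb were so in T only, Nppb at 145. Myl7, the atrial light chain gene, had a signal of 513 in MMA, 86.4 in LLS and 60.6 in LMA, with 138 in T, and the cardiac myosin-binding protein gene Mybpc3 had 113 in MMA, 30.8 in LMA and 201 in T and was not well above background in LLS (18.2). Nkx2-5, a cardiac transcription factor gene also active in the early pharyngeal arches, had 200 in MMA, 700 in LLS and 767 in LMA, with 2273 in T. The cardiac troponin gene Tnnt2 had 38.5 in MMA, 149 in LLS and 492 in LMA, with 12756 in T. Among the genes most like Myh8, listed below, Tnnt2 ranked 2. Tnni3, also a cardiac troponin gene, had 31.7 in MMA, 98.9 in LLS and 72.4 in LMA, with 46.7 in T. Both troponin genes were lowest in MMA, and Gata5 lay between 361 and 416 in all tissues. Tbx20 was well above background in MMA only (25.8), and Ryr2 in LLS (44.8) and T (58.5) only. The markers thus differed in their order, with MMA above both E11.5 tissues for Myl7 and Mybpc3 and below them for Nkx2-5, Tnnt2 and Tnni3, as for Myh6. For Myh7, MMA was above LLS and alike to LMA. Mylk3, a cardiac light chain kinase gene from another list, had 169 in MMA, 50.2 in LLS and 49.4 in LMA, and was not well above background in T (10.2). The part of heart cells in the Myh6 and Myh7 values was not tested.

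Counted over the family by the brightest probe of each gene, 6 of the 8 members that could be compared were at least 2-fold higher in T than in LLS and 0 lower, where 12.6% of 17706 genes were higher and 6.03% lower. In T minus LMA 6 of 8 were higher and Myh1 alone lower, where 13.8% of 18258 genes were higher and 7.26% lower. In T minus MMA all 8 compared members were higher, 3 of them as bounds (Myh1, Myh3 and Myh4), where 18.0% of 17613 genes were higher and 13.8% lower. Myh1 was under 2-fold there with normexp (0.44), quantile normalization (0.86) and the authors' deposited table (0.86), and Myh4 with normexp (0.72) and the mean of all probes (0.58), which leaves 6 or 7 members higher. The median difference of the members was 2.85, 2.42 and 3.19 in these 3 comparisons, beside -0.08, -0.04 and -0.10 over all genes compared. The 3 comparisons share the T array, and Myh2 entered none. T differs from LMA and from MMA in both stage and region, which cannot be told apart.

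At E11.5, the lingual swellings were compared with the lateral arch. The sample titles read M embryo for LLS and L embryo for LMA and do not say whether the embryos were the same. With 1 pool each, region and pool cannot be told apart. In LLS minus LMA, 4 of 8 members were at least 2-fold lower and 0 higher, where 2.86% of 17754 genes were lower and 3.57% higher. These were Myh3 (-2.62 ± 0.20), Myh1 (-1.98 ± 0.25), Myh8 (-1.66 ± 0.21) and Myh7 (-1.44 ± 0.21). With the mean of all probes of a gene, Myh8 and Myh7 were under 2-fold and 2 members were lower. The other probes of Myh8 and Myh7 entered these means at the floor in both tissues. Myh6 (-0.71 ± 0.20) and Myh13 (-0.55 ± 0.23) were lower by more than their error but by less than 2-fold, Myh7b (-0.30 ± 0.28) lay at about its error, and Myh4, as a bound, was lower by at least 0.77 but differed by 0.01 with the mean of all probes. The median of the members was -1.11 and that of all genes 0.01. Skeletal muscle identity markers were at least 2-fold lower in LLS in 4 of 8 cases and higher in 0 (median -1.21), and endothelial markers lower in 4 of 6, while epithelial markers were higher in 4 of 6. Their part in the result was not tested.

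Between the E9.5 medial arch and the E11.5 tissues the members diverged. These tissues differ in both stage and region, with 1 pool each, so stage and region cannot be told apart. In LMA minus MMA 5 of 8 were at least 2-fold higher and 0 lower, where 10.5% of 17753 genes were higher and 7.12% lower: Myh3 (at least 7.25), Myh8 (4.43 ± 0.28), Myh1 (at least 2.86), Myh6 (2.63 ± 0.22) and Myh13 (1.30 ± 0.28, but 0.51 with normexp). In LLS minus MMA 3 of 7 were higher, Myh3 (at least 4.64), Myh8 (2.77 ± 0.28) and Myh6, and Myh7 was lower, where 9.61% of 17125 genes were higher and 5.57% lower. With the mean of all probes, in which dim probes entered at the floor, Myh3 alone was higher and 0 lower.

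**Figure D2:**
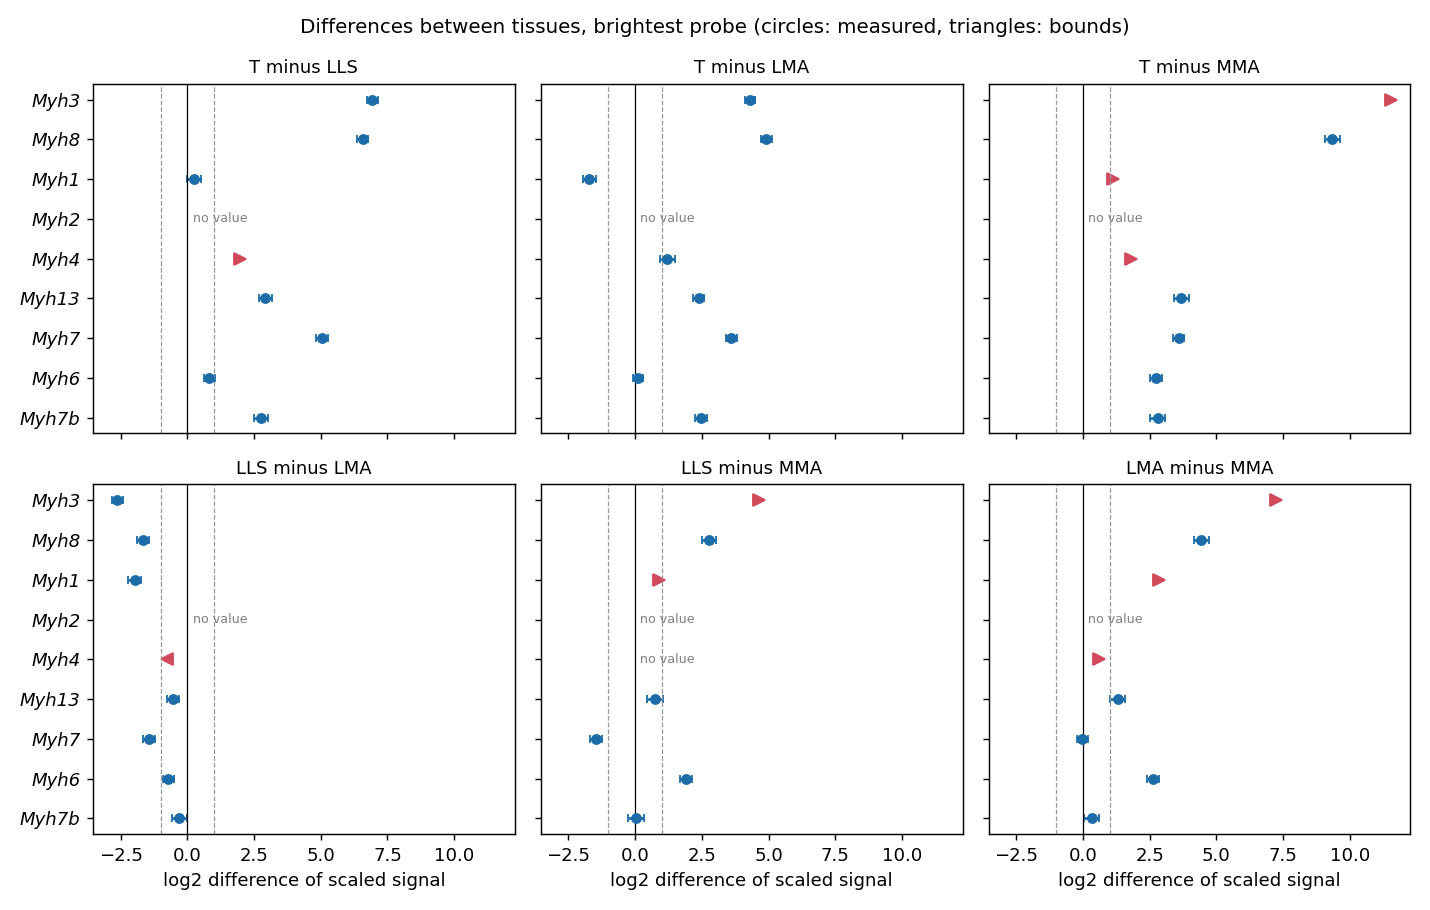
Log2 differences of scaled signal in the 6 comparisons for the brightest probe of each gene. Circles are differences measured in both tissues with the error of the scanner software, triangles are bounds pointing away from 0, dashed lines mark 2-fold, and "no value" means not well above background in either tissue; Myh3 reaches 6.93 in T minus LLS and -2.62 in LLS minus LMA.

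**Figure D3:**
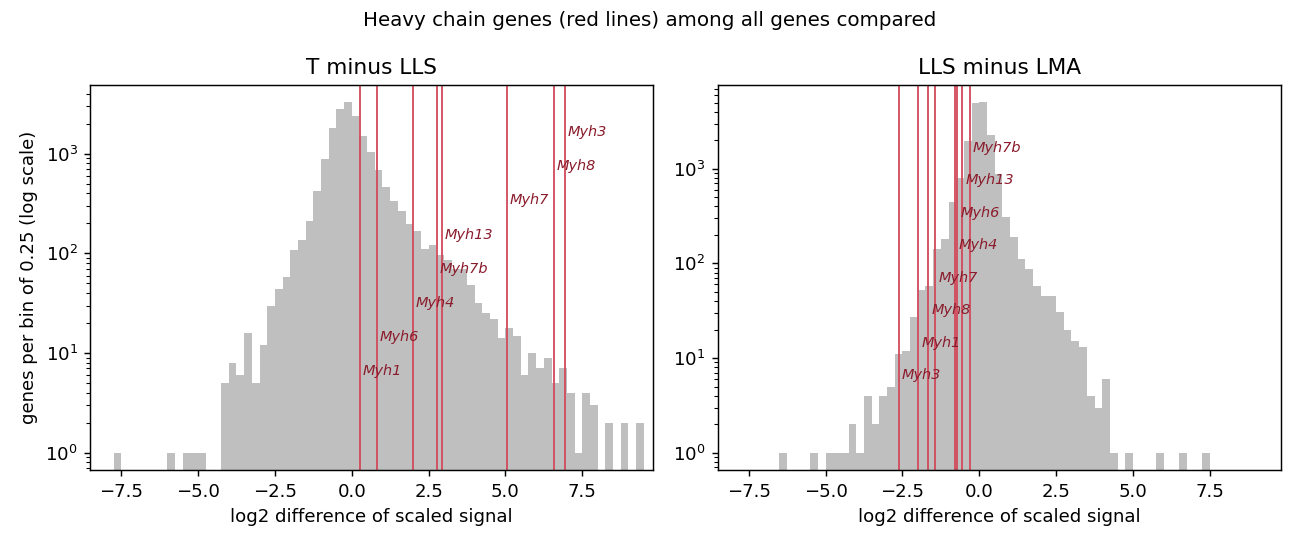
Log2 differences of all genes compared in T minus LLS (17706 genes) and LLS minus LMA (17754 genes) as grey histograms on a log count axis, with the 8 comparable heavy chain genes as red lines. In T minus LLS the lines run from 0.25 (Myh1) to 6.93 (Myh3), and in LLS minus LMA all lie below 0.

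The series design names ROKU, a method that looks for a tissue standing apart in the profile of each gene. With its outlier step, and at least 2-fold distance from the nearest other tissue, 5 members were specifically high in T (Myh4, Myh7, Myh7b, Myh8 and Myh13), where 7.96% of 18679 genes were. With no filter and no floor 4 members were, and Myh4, which entered MMA and LLS at the floor, dropped out. Myh1 was specifically high in LMA. Myh3 and Myh6 were specifically low in MMA, and Myh2 had no call. Myh1 and Myh3 entered MMA at the floor. The share of all genes with such calls in LMA or MMA was not counted. By the plainer rule of being at least 2-fold above each other tissue, Myh3 joined the 5 named above, so 6 members were highest in T, where 8.81% of genes were. Myh4 was under 2-fold in T minus LMA with normexp (0.61) and with the mean of all probes (0.71).

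The genes most like a member were those with the smallest root mean square difference between profiles, each centred on its own mean, over the 4 tissues. Signals that were not well above background entered at the floor, so the values and ranks for Myh3, which is at the floor in MMA, rest on a bound. For Myh3, among 15477 genes, these were the light chain gene Myl1 (0.435 on the log2 scale), the fast troponin gene Tnnc2 (0.451), the osteoglycin gene Ogn (0.796), the skeletal actin gene Acta1 (0.925) and the sarcolipin gene Sln (0.966), and Myh8 ranked 8 with 1.054. For Myh8, among 14829 genes, they were Acta1 (0.202), the troponin genes Tnnt2 (0.463) and Tnni2 (0.523), Apobec2 (0.544) and Myl1 (0.673). Myh7 came closest to Isg20 (0.381), the tropomodulin gene Tmod1 (0.394), the fatty acid-binding protein gene Fabp3 (0.429), Scgb3a2 (0.433) and Itgal (0.436).

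The profiles of smaller range matched genes of other kinds. Myh6 was closest to Ddit4l (0.021), the neuregulin gene Nrg1 (0.037), 5330421C15Rik (0.061), Olfml3 (0.109) and Ncoa1 (0.129). Myh7b was closest to Mgll (0.067), Ppp1r14c (0.110), the semaphorin gene Sema3b (0.118), Plekha4 (0.126) and Niban1 (0.128), and Myh13 to Nexmif (0.042), Vgll3 (0.104), the lamin gene Lmna (0.115), Gatm (0.135) and Dclk1 (0.141). Among the members, Myh7b ranked 72 for Myh13 (0.382), and Myh8 ranked 14785 of 14829 for Myh6 (2.562). With 4 points on shared arrays these are descriptions of the profiles.

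Partners of the heavy chains in the thick filament and M-band were higher in T as well. In T minus LLS 8 of 9 compared partners were at least 2-fold higher and 0 lower (median 5.07), beside 12.6% of all genes. They included the M-band crosslinker gene Myom2, with a signal of 11738 in T and not well above background in LLS (5.1), the myosin-binding protein gene Mybph (log2 difference 6.23) and the other myomesin genes Myom3 (5.91) and Myom1 (5.18). In LLS minus LMA 6 of 8 partners were lower (median -1.46). Among the folding and assembly genes, the muscle myosin chaperone gene Unc45b was higher in T than in LLS (5.18), whereas its general relative Unc45a (-0.24) and the chaperone genes Hsp90aa1 (0.04) and Hsp90ab1 (-0.30) were within 2-fold. Apobec2 (5.57) and Stac3 (3.20) were the other 2 of the 3 higher among 8, and Smyd1 (0.22) and Smyd2 (-0.38) were within 2-fold.

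Light chains and their kinases had 8 of 10 genes higher in T than in LLS and 1 lower (median 4.43). The embryonic and atrial light chain gene Myl4 (8.32), the fast regulatory light chain gene Mylpf (7.54), Myl1 (6.35) and the slow or ventricular gene Myl3 (6.34) led, and the cardiac light chain kinase gene Mylk3 was lower by at least 1.02. The class II heavy chains of other cells did not follow: 0 of 4 were higher and 2 lower. Myh9, a nonmuscle chain, differed by 0.26 and Myh14 by 0.69, while the nonmuscle Myh10 (-1.11) and the smooth muscle Myh11 (-1.03) were lower in T.

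Genes of fast and of slow fibres were both higher in T. In T minus LLS 6 of 8 fast genes (median 4.87) and 7 of 8 slow genes (median 5.81) were at least 2-fold higher, with 0 lower in either list. Fast genes included Tnnc2 (7.36), Tnnt3 (7.24), Tnni2 (5.91) and the Z-disc gene Myoz1 (5.34), with Casq1 (at least 4.40), which encodes a calcium buffer of the sarcoplasmic reticulum, and the calcium pump gene Atp2a1 (2.43). The fast genes Actn3 (0.63) and Pvalb (0.67) were under 2-fold. Slow genes included Casq2 (7.78), Myoz2 (at least 7.05), the actinin gene Actn2 (6.12), the troponin genes Tnnc1 (5.94), Tnni1 (5.68) and Tnnt1 (1.77), and the myoglobin gene Mb (at least 2.61), while the pump gene Atp2a2 (-0.36) was within 2-fold. Of 12 fibre type regulators 6 were higher and 1 lower (median 1.20), led by Tbx15 (4.36), known to mark fast fibres, Nfix (3.05), known for the fetal muscle programme, Mef2c (2.88) and Vgll2 (2.11), with Six4 (-1.20) the lower gene.

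**Figure D4:**
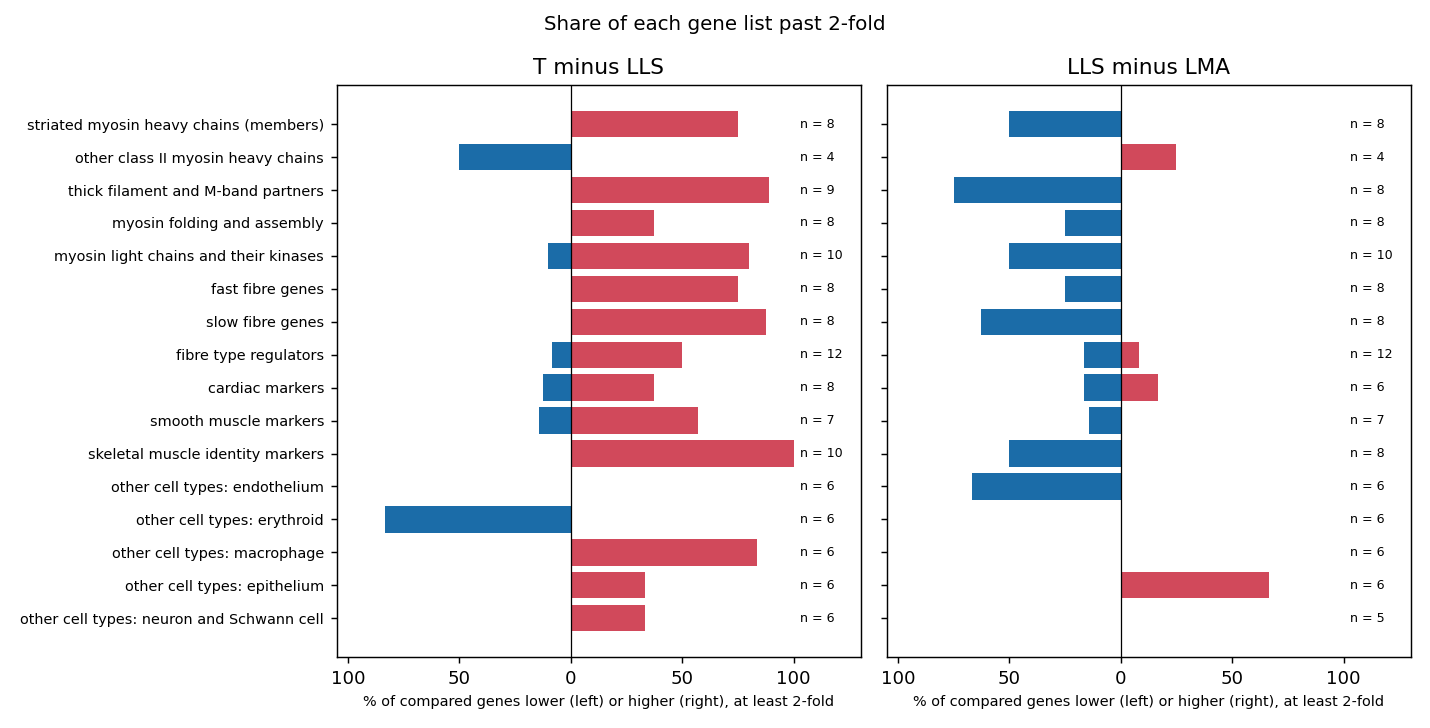
Percentage of the compared genes of each list that were at least 2-fold higher (red, right) or lower (blue, left) in T minus LLS and in LLS minus LMA, with the number compared at the right edge. The heavy chains have 6 of 8 genes higher in T minus LLS and 4 of 8 lower in LLS minus LMA, next to 8 of 9 and 6 of 8 for their thick filament partners.

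Other cell types also differed between T and LLS. Macrophage markers were at least 2-fold higher in T in 5 of 6 cases (median 1.15), neuron and Schwann cell markers in 2 of 6, epithelial markers in 2 of 6 and smooth muscle markers in 4 of 7 with 1 lower, whereas erythroid markers were lower in 5 of 6 (median -2.88) and endothelial markers within 2-fold in 6 of 6. Skeletal muscle identity genes were higher in 10 of 10 (median 3.86), and their part in the heavy chain values was not tested. Among them Cav3, the muscle caveolin gene, differed by at least 9.40, the creatine kinase gene Ckm by at least 6.99 and Myod1 by 1.54.

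Myh3 and Myh8 had the same order of tissues, and their promoters from RefSeq (GRCm38.p6) are given from 250 bases before the start site up to it, with matches to CANNTG (the E-box, bound by myogenic regulators among other factors) and to TATAAA in either strand in capitals. Myh3 is at chr11:67078050-67078299 and Myh8 at chr11:67276874-67277123, both on the plus strand.
Myh3: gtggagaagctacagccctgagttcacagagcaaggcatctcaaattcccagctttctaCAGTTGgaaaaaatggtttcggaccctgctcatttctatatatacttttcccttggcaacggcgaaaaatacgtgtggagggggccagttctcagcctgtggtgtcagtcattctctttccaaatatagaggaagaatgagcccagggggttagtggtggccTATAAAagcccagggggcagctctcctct
Myh8: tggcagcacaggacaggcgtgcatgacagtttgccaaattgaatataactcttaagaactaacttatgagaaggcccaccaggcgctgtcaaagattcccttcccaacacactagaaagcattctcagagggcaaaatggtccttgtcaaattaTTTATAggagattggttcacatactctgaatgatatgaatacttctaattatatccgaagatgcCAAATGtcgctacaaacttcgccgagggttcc

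In the whole window of 300 bases, which adds 50 after the start, CANNTG had 1 match in Myh3 and 2 in Myh8, beside 72.3% of 32851 mouse promoters with at least 1 match. TATAAA, searched on both strands, had 1 match in each, beside 13.6% of promoters. Neither was particular to Myh3 and Myh8. CANNTG was found in all members except Myh1 and Myh2. TATAAA was also found in Myh1, Myh2, Myh4 and Myh6, and not in Myh7, Myh7b and Myh13. CATTCC, the letters of the MCAT element known from muscle genes, was found on either strand in the windows of Myh1, Myh4 and Myh6 and in 1 of the 2 windows of Myh7, beside 14.7% of promoters. All 9 genes matched the promoter table, and TATAAA was added to the search after the promoters had been read. A match is a description of these letters and not a binding site.

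Myh6, Myh7 and Myh7b each hold a microRNA gene, and these are known to act in the control of slow myosin. Their mature sequences from RefSeq (GRCm38.p6) are shown since all 3 host genes had a probe well above background in all 4 tissues; the seed, bases 2 to 8, is in capitals.
miR-208a-3p, in Myh6: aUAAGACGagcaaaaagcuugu
miR-208b-3p, in Myh7: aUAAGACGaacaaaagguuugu
miR-499-5p, in Myh7b: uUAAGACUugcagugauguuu
The miRNAs of Myh6 and Myh7 share 1 seed, and that of Myh7b has the same bases 2 to 7. They lie at chr14:54949072-54949093 and chr14:54975710-54975731 on the minus strand and at chr2:155622893-155622913 on the plus strand. The array values above are those of the host genes, of which Myh7 and Myh7b were highest in T while Myh6 was alike in T and LMA within its error, and the mature miRNAs were not measured.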

How the data were processed

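Total RNA of 4 tissue pools was labelled with Cy3 and hybridised to 4 arrays of 1 slide. Per the file headers, the authors obtained the deposited intensity values from Agilent Feature Extraction 10.7.1.1 (the submitters' processing notes list 9.5.1.1): background subtraction, spatial and multiplicative detrending, surrogates for dim spots and no scaling between arrays, on build mm9. The flags (detection, outlier, control) come from the same files. The intensity values of the deposited value table of the series served as an alternative. Its between-array normalization is not named in the sources used here, and its columns are linear.

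Control and outlier spots were left out, repeated spots averaged and probes named through RefSeq, by accession (32990 probes) or else by the symbol in the file. The brightest probe by mean log2 signal stood for a gene. Log2 signals were scaled to the 75th percentile of the array (a signal of 422 in MMA, 456 in LLS and 507 in LMA, with 491 in T) and floored as described in the report. Errors of differences combine the software's errors of both spots. Genes were counted by size, at least 2-fold, without tests. Named genes are all members with every probe, the 4 list members of largest T minus LLS difference (all of a list of 8 or fewer, which was kept for the muscle lists), and the 5 genes most like Myh3, Myh7, Myh8 and each member detected in all tissues. Cardiac, cell-type and identity markers given with values were picked after these were seen. The members and lists were chosen with earlier results of these data known. Simulated arrays with planted changes and noise at the scale of spot error were used to check the counting code. They do not test the reported counts. Alternatives changed the scaling, background correction, floor, probe choice, threshold and source of values. Normexp background correction was run with an offset of 50 added to every signal, which shrinks differences of dim signals. Tools were Python 3.11.15, pandas 2.3.3 and limma 3.58.1.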

Additional observations from a re-analysis of the deposited data

How the results depend on the processing

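With 1 array per tissue, no array could be left out, and no paired analysis was possible because each tissue has 1 pool. Of 47 differences of members between tissues, none of at least 2-fold changed sign under 7 alternatives (no scaling, quantile, cyclic loess, normexp, no floor, mean of all probes, the authors' deposited value table). The last of these gave nearly the values of quantile normalization. With no filter and no floor, 5 members were higher and 2 lower in LLS minus MMA, and 1 was lower in T minus MMA. The 1 lower in T minus MMA, and 1 of the 2 in LLS minus MMA, is Myh2. Its signals (10.4 in MMA, 4.3 in LLS and 5.6 in T) were not well above background, so no difference is read from them. The share of all genes was not counted under the alternatives. With the mean of all probes, 1 was higher and 0 lower in LLS minus MMA and 2 were lower in LLS minus LMA. At 4-fold, 1 was lower in LLS minus LMA, 0 in LLS minus MMA and 0 in T minus LMA. The other counts stayed within 1.5 times the reported ones. Normexp moved Myh4 in T minus LMA to 0.61 and in T minus LLS to 0.76, both under 2-fold. The mean of all probes moved Myh3 in T minus LLS to at least 5.54 and Myh8 to at least 4.13. The offset of 50 in normexp shrinks differences of dim signals, and dim probes at or near the floor do so in the mean of all probes. How far this accounts for each value was not tested. Signals near the detection limit (Myh4, and Myh8, Myh7b and Myh13 in MMA) limit the precision of their differences. In T minus MMA the median of all genes was 0.12 with no scaling and 0.18 with cyclic loess, beside -0.10 as reported; in LMA minus MMA it was 0.18 with no scaling, beside -0.09, and in LLS minus LMA -0.15, beside 0.01.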

Other observations

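A pair of noncoding transcripts at the heavy chain loci was also on the arrays, chosen after the values of the members were seen. The probe of 2310065F04Rik (linc-Myh), which lies between Myh3 and Myh2 on chromosome 11, was not well above background in MMA (4.7) and had signals of 23.8 in LLS and 31.1 in LMA, with 32.3 in T. The probe of Mhrt, which overlaps Myh7 on chromosome 14, was not well above background in MMA (14.8) and LLS (18.9) and had signals of 24.7 in LMA and 41.8 in T. All of these lie near the detection limit, and no difference between tissues is read from them.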
